A study of Homo sapiens with 12 samples.

Results

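Serine, glycine, one-carbon units, asparagine and proline are made from intermediates of glycolysis, folate metabolism and the citric acid cycle, and 10 genes that encode enzymes of these routes were followed here in human cells with and without mitochondrial DNA (mtDNA). They are PHGDH, PSAT1 and PSPH (serine synthesis), SHMT1, SHMT2, MTHFD1 and MTHFD2 (the folate-bound one-carbon units), ASNS (asparagine) and PYCR1 and ALDH18A1 (proline). All probe sets of the array whose listed gene is 1 of the 10, under its present or an older symbol, were taken, which gave 13 of 22283 probe sets and at least 1 for each of the 10 genes. A further 2 probe sets list a member together with other genes (MIR6778 with SHMT1, and MZT2A and MZT2B with PHGDH) and were not counted.

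The study asked how the nucleus responds to the loss of mtDNA, and measured RNA on 12 Affymetrix expression arrays. Parental ρ+ and mtDNA-depleted ρ° (rho0) cells were taken from 143BTK-, an osteosarcoma line that has no thymidine kinase, and from A549, a line of lung adenocarcinoma, which makes 4 groups of 3 arrays. The ρ° cells had been grown in 50 ng/ml ethidium bromide for 3 weeks and then pooled as a mixed population rather than cloned. The absence of mtDNA was checked after the drug had been removed. All cells were then frozen, and were revived and passaged before RNA was taken. All 4 groups were grown in high-glucose medium with 10% serum, 1 mM pyruvate and 50 µg/ml uridine, so the pyruvate and uridine that cells without a respiratory chain require were present in the ρ+ cells as well. The 3 arrays of a group carry the letters A, B and C and are described as biological replicates. The methods give 3 independent RNA extractions for each group and do not describe repeated depletions of a line. The spread between arrays may therefore not cover differences between depletions.

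Serine is built from a glycolytic intermediate, and the serine hydroxymethyltransferases pass its side-chain carbon to tetrahydrofolate, yielding glycine and a one-carbon unit for purine, thymidylate and formyl-methionine synthesis. The folate enzymes form a cytosolic arm (SHMT1, MTHFD1) and a mitochondrial arm (SHMT2, MTHFD2). The genes of serine and asparagine synthesis, MTHFD2 and PYCR1 are known targets of ATF4, a transcription factor whose translation increases when amino acids are short or mitochondria are impaired.

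ATF4 with a C/EBP protein binds a composite element, here searched as TGATGNAA, and the E-box CACGTG is bound by MYC and other basic helix-loop-helix factors. RefSeq promoter windows on GRCh38.p14, each 300 bases from 250 before a start to 50 after it, were searched for these letters on both strands. Of the 10 genes, 7 had a window (8 windows, as ASNS had 2). TGATGNAA was found in 3.62% of all 35116 windows and in 1 of the 7 genes, ASNS, 68 bases before the start. CACGTG was found in 7.26% of all windows and in 2 of the 7 genes, MTHFD1 (15 bases before the start) and ALDH18A1 (136 bases before it). These 3 windows are shown with the match in capitals. By the brightest probe set of each tested gene, ASNS and PYCR1, which had no window, had the highest mean changes (0.79 ± 0.32 and 0.78 ± 0.18, SE, on the log2 scale). MTHFD1 and ALDH18A1 had the lowest. Another probe set of SHMT2, 214437_s_at, had a higher mean change (0.86 ± 0.17), and SHMT2 had no window. The 3 windows lie at chr7:97872359-97872658 (minus strand), chr14:64388103-64388402 (plus strand) and chr10:95656662-95656961 (minus strand). Both motifs were found on the strand shown, and a match is a description of the letters and no evidence of binding.
ASNS: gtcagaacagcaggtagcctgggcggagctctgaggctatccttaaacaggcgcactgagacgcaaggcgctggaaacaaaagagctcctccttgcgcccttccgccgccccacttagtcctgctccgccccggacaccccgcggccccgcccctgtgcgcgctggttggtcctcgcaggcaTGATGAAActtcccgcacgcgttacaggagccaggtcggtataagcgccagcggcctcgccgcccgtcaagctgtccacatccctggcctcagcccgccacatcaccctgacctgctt
MTHFD1: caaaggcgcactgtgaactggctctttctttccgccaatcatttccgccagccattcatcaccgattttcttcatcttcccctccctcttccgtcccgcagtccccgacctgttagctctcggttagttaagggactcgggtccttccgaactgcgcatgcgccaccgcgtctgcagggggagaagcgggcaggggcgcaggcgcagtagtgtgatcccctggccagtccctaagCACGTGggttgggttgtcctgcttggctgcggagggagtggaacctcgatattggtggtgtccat
ALDH18A1: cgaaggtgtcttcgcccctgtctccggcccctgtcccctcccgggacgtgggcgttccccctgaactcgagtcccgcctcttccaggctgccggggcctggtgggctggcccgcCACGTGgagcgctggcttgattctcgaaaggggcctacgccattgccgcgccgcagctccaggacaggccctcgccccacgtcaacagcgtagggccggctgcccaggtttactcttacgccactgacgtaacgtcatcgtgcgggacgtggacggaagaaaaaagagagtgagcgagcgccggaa

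The values are signals of the Affymetrix software MAS5 on a linear scale, normalized by the authors within each line, so a signal is compared here only with the same probe set in the same line. Faint probe sets were left out of the tests in each line, with a floor at a mean signal of 12.6 in 143BTK- and of 19.1 in A549. In 143BTK- 12 of the 13 probe sets were kept and in A549 11, which left 9 of the 10 genes in each line. The exception was SHMT1, the cytosolic serine hydroxymethyltransferase, whose own probe set (217304_at) had signals of 0.6 to 12.2 on the 12 arrays and was not tested. Where a gene had several probe sets, the brightest by its log2 signals on all 12 arrays represented it in counts. Replicates of a group had Pearson correlations of 0.90 to 0.95 across probe sets. With 3 arrays a group, the number of arrays limits the precision of every value. As these are bulk RNA samples, fewer cells of a kind and less RNA per cell cannot be told apart.

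In the depleted cells PYCR1, ASNS, PSAT1, PHGDH and the mitochondrial folate genes MTHFD2 and SHMT2 had positive mean changes over both lines, and the cytosolic folate gene MTHFD1 had a negative one, but few of these changes passed the test across all probe sets. In A549, 7 of the 9 genes had a positive log2 change and in 143BTK- 6 of 9. The median log2 change of the 9 was 0.45 in A549 and 0.34 in 143BTK-, where the median of all kept probe sets was 0.00 in both lines. In limma with Benjamini-Hochberg adjustment, PYCR1 rose in the mean of both lines, a call that held in 4 of the 12 fits with 1 array left out. Of the SHMT2 probe sets, 1 of 3 rose in A549, a call lost without any 1 of 4 arrays, and in the mean of both lines. No other probe set of the 10 genes passed.

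**Figure D1:**
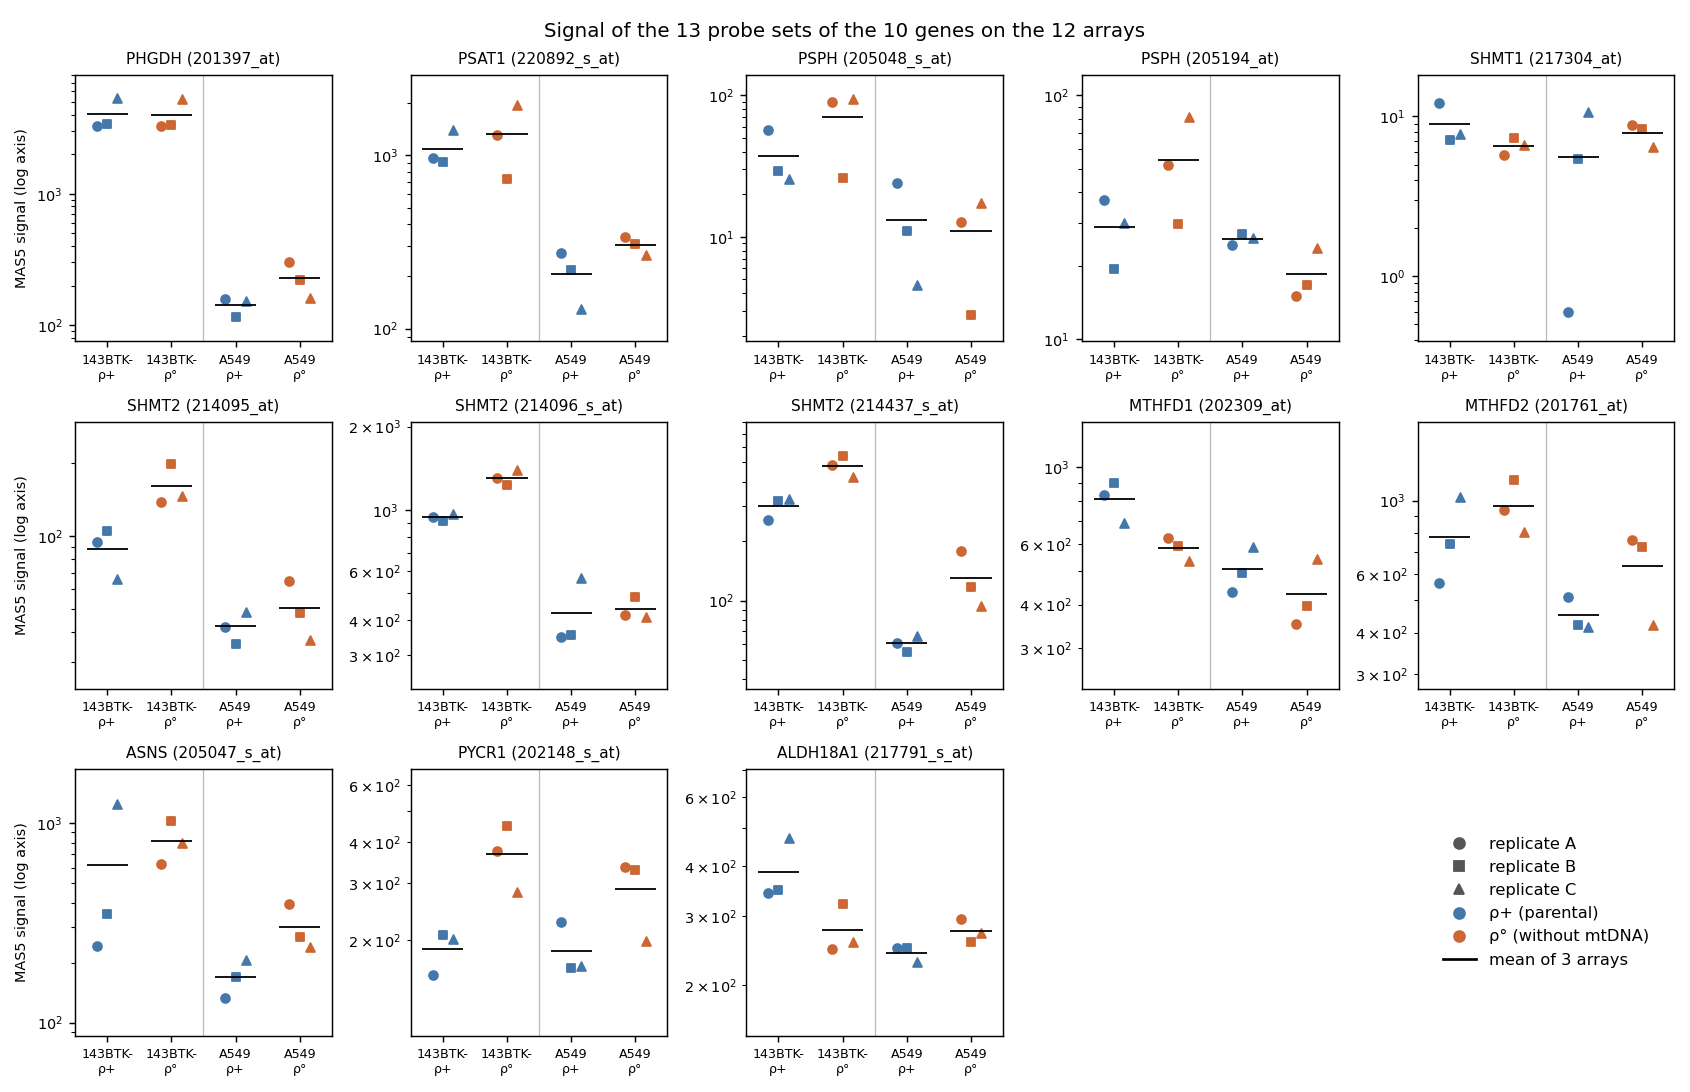
MAS5 signal (log axis, scaled separately in each panel) of each of the 13 probe sets on the 12 arrays, with ρ+ arrays in blue, ρ° arrays in orange, replicates A, B and C as circles, squares and triangles, and the mean of 3 arrays as a bar. The ρ° arrays of the SHMT2 probe set 214437_s_at lie above the ρ+ arrays in both lines, and the ASNS signal of the 143BTK- ρ+ replicate C (1252.7) is above all other arrays of that line.

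PHGDH (201397_at, chromosome 1) encodes phosphoglycerate dehydrogenase, which commits a glycolytic intermediate to serine. In A549 its signal was 303.2, 220.3 and 160.4 on the ρ° arrays A, B and C and 156.9, 115.5 and 151.8 on the ρ+ arrays. All ρ° arrays were above all ρ+ arrays, with a log2 change of 0.65 ± 0.26 (SE, n = 3 a group) that did not pass the limma test (adjusted p = 0.14). In 143BTK- the signals were 3300.6, 3343.7 and 5300.8 in ρ° and 3253.1, 3420.0 and 5382.3 in ρ+ cells, so the arrays overlapped and the log2 change was -0.01 ± 0.24. Replicate C was the highest array in both states of 143BTK-. The change in A549 exceeded that in 143BTK- by 0.67 ± 0.38 on the log2 scale, which did not pass the limma test (adjusted p = 0.40).

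PSAT1 (220892_s_at, chromosome 9) encodes phosphoserine aminotransferase, the enzyme after PHGDH. In A549 its signals were 338.2, 306.9 and 264.6 in ρ° and 273.1, 217.6 and 129.6 in ρ+ cells, a log2 change of 0.61 ± 0.27 (limma adjusted p = 0.178). The groups overlapped, since ρ° replicate C was below ρ+ replicate A. In 143BTK- the signals were 1319.8, 733.0 and 1956.6 in ρ° and 964.8, 915.5 and 1400.3 in ρ+ cells, with the lowest of all 6 values in a ρ° array and a log2 change of 0.20 ± 0.34. With 1 array left out, the PSAT1 change in 143BTK- was between -0.13 and 0.58. Chromosome 9 was lower as a whole in the ρ° cells of both lines, with a median log2 change of -0.18 in 143BTK- and -0.31 in A549. The cause of these shifts was not tested.

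PSPH (chromosome 7) encodes phosphoserine phosphatase, which releases serine. Its brighter probe set, 205194_at, read 51.7, 29.7 and 81.2 in ρ° and 37.2, 19.3 and 30.0 in ρ+ cells of 143BTK-, a log2 change of 0.84 ± 0.43 (limma adjusted p = 0.652) with overlapping arrays. In A549 it read 15.0, 16.6 and 23.7 in ρ° and 24.2, 26.9 and 26.0 in ρ+ cells, so all ρ° arrays were below all ρ+ arrays. The ρ° mean of 18.4 is under the floor of the tests, and the size of this change was therefore not measured (limma adjusted p = 0.444). The changes in the lines differed without passing the test (limma adjusted p = 0.223). The second probe set, 205048_s_at, had a log2 change of 0.79 ± 0.53 in 143BTK- and was not kept in A549.

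SHMT2 (chromosome 12), the mitochondrial serine hydroxymethyltransferase, was read by 3 probe sets that differed in their changes. The probe set 214437_s_at read 178.3, 116.4 and 93.3 in ρ° and 61.1, 55.1 and 66.1 in ρ+ cells of A549. In 143BTK- it read 486.9, 536.8 and 422.3 in ρ° and 256.8, 318.5 and 324.9 in ρ+ cells. It was the only probe set of the 10 genes whose ρ° arrays were all above the ρ+ arrays in both lines, an order that 1.43% of the 12139 probe sets kept in both lines had. The log2 change was 1.04 ± 0.27 in A549 (limma adjusted p = 0.0374), 0.68 ± 0.21 in 143BTK- (limma adjusted p = 0.509) and 0.86 ± 0.17 in the mean of both lines (adjusted p = 0.0179), or 1.82-fold. The A549 call was lost when any 1 of 4 arrays was left out (replicates A and B of either state, adjusted p up to 0.152), and with chromosome centring, without the filter or without the intensity trend of the fit (0.0611 to 0.0675). That of the mean was lost without A549 ρ° A (0.0507) or A549 ρ+ B (0.0556).

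The brightest SHMT2 probe set, 214096_s_at, read 1299.9, 1233.8 and 1388.6 in ρ° and 945.8, 915.0 and 966.4 in ρ+ cells of 143BTK-. These groups did not overlap, and the log2 change was 0.47 ± 0.16 (limma adjusted p = 0.534). In A549 it read 417.6, 485.0 and 409.8 in ρ° and 348.8, 352.7 and 568.4 in ρ+ cells, where ρ+ replicate C was the highest array and the log2 change was 0.08 ± 0.22. The faintest, 214095_at, had separate groups in 143BTK- (log2 change 0.87 ± 0.28, limma adjusted p = 0.529) and overlapping ones in A549 (0.22 ± 0.30). In 143BTK- all 3 SHMT2 probe sets thus had ρ° arrays above ρ+ arrays, and in A549 1 of the 3. The probe set listed to both MIR6778 and SHMT1 (209980_s_at) went in opposite directions, with a log2 change of -0.95 in 143BTK- and 1.10 in A549. This difference of 2.06 did not pass the limma test (adjusted p = 0.0746), and which of the listed transcripts it reads was not tested.

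MTHFD2 (201761_at, chromosome 2) encodes the mitochondrial methylenetetrahydrofolate dehydrogenase and cyclohydrolase. In A549 it read 758.3, 725.2 and 423.1 in ρ° and 513.8, 421.9 and 417.4 in ρ+ cells, with the ρ° replicate C among the ρ+ values and a log2 change of 0.45 ± 0.24 (limma adjusted p = 0.247). Without that array the change was 0.72 and passed (limma adjusted p = 0.046), and without ρ° A it was 0.30 (adjusted p = 0.566). In 143BTK- it read 939.2, 1153.5 and 805.2 in ρ° and 566.1, 741.2 and 1025.6 in ρ+ cells, a log2 change of 0.34 ± 0.25. Here ρ+ replicate C lay among the ρ° arrays. The mean change of both lines was 0.40 ± 0.18 (limma adjusted p = 0.236).

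MTHFD1 (202309_at, chromosome 14), the cytosolic trifunctional folate enzyme, differed in direction from MTHFD2. In 143BTK- it read 624.1, 589.6 and 535.9 in ρ° and 831.2, 901.9 and 689.6 in ρ+ cells, so that all ρ° arrays were below all ρ+ arrays, with a log2 change of -0.46 ± 0.19 (limma adjusted p = 0.577). Chromosome 14 was lower as a whole in 143BTK- ρ° cells, with a median log2 change of -0.33 over 429 probe sets, and with each array centred on its chromosome medians before the fit the MTHFD1 change was -0.12. In A549 the signals were 351.9, 395.5 and 540.7 in ρ° and 434.1, 494.7 and 589.0 in ρ+ cells, overlapping, with a log2 change of -0.25 ± 0.21. The mean of both lines was -0.36 ± 0.14 (limma adjusted p = 0.173).

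ASNS (205047_s_at, chromosome 7) encodes asparagine synthetase, which takes the amide nitrogen of glutamine. In A549 it read 392.9, 269.0 and 240.3 in ρ° and 132.2, 170.2 and 206.2 in ρ+ cells. All ρ° arrays were above all ρ+ arrays and the log2 change was 0.82 ± 0.25, or 1.76-fold, just outside the threshold (limma adjusted p = 0.0647). Probe sets of chromosome 7 had a median log2 change of -0.28 in A549. With each array centred on its chromosome medians before the fit, the ASNS change was 1.12 and passed (limma adjusted p = 0.0219). With 1 array left out it was between 0.61 (without ρ° A, adjusted p = 0.235) and 0.97 (without ρ+ C, adjusted p = 0.0292), and it passed in the last of these fits alone.

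In 143BTK- ASNS read 622.7, 1029.4 and 794.5 in ρ° and 242.0, 349.5 and 1252.7 in ρ+ cells. The ρ° arrays were above ρ+ replicates A and B and below ρ+ replicate C, and the log2 change of 0.76 ± 0.53 had the largest standard error of the representative probe sets in that line. Replicate C was 4.31-fold above the geometric mean of A and B, a ratio that 0.407% of the kept probe sets exceeded. Without it the log2 change was 1.46 in 143BTK- (limma adjusted p = 0.344) and 1.14 in the mean of both lines (adjusted p = 0.00962), against 0.79 ± 0.32 with all arrays (adjusted p = 0.179). Over all 12 fits with 1 array left out, the mean change was between 0.54 and 1.14 (limma adjusted p between 0.00962 and 0.355). The 143BTK- ρ+ replicate C array was also the highest ρ+ array of its line for PHGDH, PSAT1, SHMT2 (214096_s_at and 214437_s_at), MTHFD2 and ALDH18A1. It was not for PSPH, PYCR1 or MTHFD1, and it was the lowest for MTHFD1, the PSPH probe set 205048_s_at and the SHMT2 probe set 214095_at. For the probe sets other than ASNS where it was highest, 12.8% (PHGDH) to 47.1% (SHMT2, 214096_s_at) of the kept probe sets had a larger ratio. The cause was not tested.

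PYCR1 (202148_s_at, chromosome 17) encodes the mitochondrial pyrroline-5-carboxylate reductase, which completes proline synthesis. In 143BTK- it read 375.9, 448.8 and 282.0 in ρ° and 156.4, 207.1 and 201.3 in ρ+ cells. No array overlapped, and the log2 change was 0.96 ± 0.25, or 1.94-fold (limma adjusted p = 0.396). In A549 it read 335.0, 328.5 and 198.8 in ρ° and 226.9, 163.9 and 166.4 in ρ+ cells, a log2 change of 0.61 ± 0.25 (limma adjusted p = 0.153) in which ρ° replicate C was below ρ+ replicate A. The mean of both lines was 0.78 ± 0.18, or 1.72-fold, and passed (limma adjusted p = 0.0362). The call stood in 4 of the 12 fits with 1 array left out (without A549 ρ° C, A549 ρ+ A, 143BTK- ρ° C or 143BTK- ρ+ C) and was lost in the other 8, with the adjusted p between 0.016 and 0.103 and the log2 change between 0.70 and 0.90. It was also lost without the intensity trend (0.0569) and with chromosome centring (0.0504).

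ALDH18A1 (217791_s_at, chromosome 10) encodes the mitochondrial synthase that makes pyrroline-5-carboxylate from glutamate, upstream of PYCR1. In 143BTK- it read 247.6, 321.2 and 257.7 in ρ° and 341.7, 348.3 and 471.1 in ρ+ cells, all ρ° arrays below all ρ+ arrays, with a log2 change of -0.48 ± 0.23 (limma adjusted p = 0.625). In A549 it read 294.2, 256.8 and 270.7 in ρ° and 248.6, 248.1 and 229.4 in ρ+ cells, all ρ° arrays above all ρ+ arrays, with a log2 change of 0.18 ± 0.18. The lines were thus separated in opposite directions, with a difference of 0.66 ± 0.28 that did not pass (limma adjusted p = 0.235). The enzymes at the start and the end of the glutamate-to-proline route thus had changes of opposite sign in 143BTK-.

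**Figure D2:**
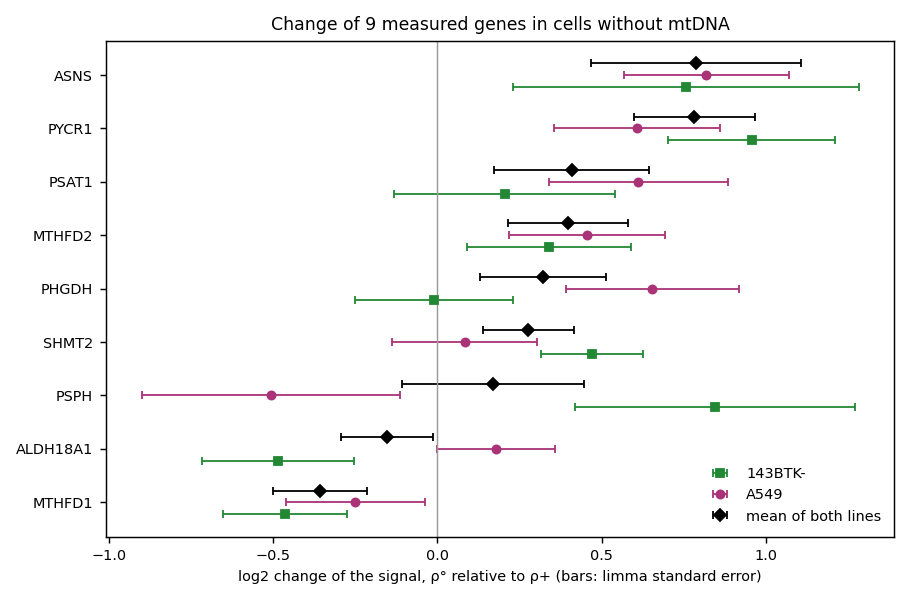
Log2 change of the signal (ρ° relative to ρ+, with the limma standard error) of the representative probe set of 9 genes in 143BTK- (squares), in A549 (circles) and in the mean of both lines (diamonds), ordered by the mean. PYCR1 and ASNS have means of 0.78 and 0.79, MTHFD1 has -0.36, and the A549 value of PSPH rests on a ρ° mean signal under the floor of the tests.

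Counted over the 9 genes in 143BTK-, 0 were called by limma in either direction, as were 0% of all kept probe sets higher and 0% lower. At an unadjusted p under 0.05, 2 of the 9 were higher (SHMT2, PYCR1; 3.79% of all kept probe sets) and 1 lower (MTHFD1; 4.6%). The 3 ρ° arrays were all above the ρ+ arrays for 2 of 9 (7.37% of all) and all below for 2 of 9 (7.47%).

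In A549, 0 of 9 were called in either direction, where 5.66% of all kept probe sets were called higher and 5.2% lower. At an unadjusted p under 0.05, 4 of 9 were higher (PHGDH, PSAT1, ASNS, PYCR1; 14% of all) and 0 lower (13.4% of all). The ρ° arrays were all above the ρ+ arrays for 3 of 9 (PHGDH, ASNS, ALDH18A1; 15.8% of all) and all below for 1 (PSPH; 16.1%).

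For the mean of both lines, 1 of 9 was called higher (PYCR1; 1.97% of 12139 probe sets) and 0 lower (1.73%). At an unadjusted p under 0.05, 3 of 9 were higher (MTHFD2, ASNS, PYCR1; 10.5% of all) and 1 lower (MTHFD1; 10.1%). For the difference between the lines, 0 of 9 were called in either direction (1.06% of all with a higher change in A549 and 0.89% with a lower one), and at an unadjusted p under 0.05 ALDH18A1 was higher in A549 (9.54% of all) and PSPH lower (7.76%). The genes were few, and these counts set no gene group apart from the rest.

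**Figure D3:**
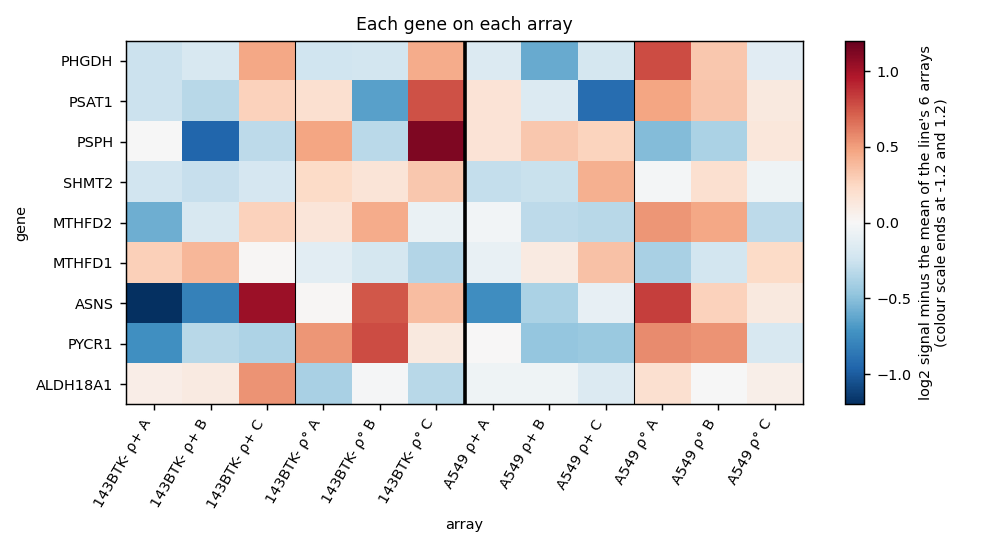
Each gene's log2 signal on each array minus the mean of the 6 arrays of its line (red above, blue below), with the genes in order of the routes. The mean over the 9 genes was below 0 on all 3 A549 ρ+ arrays and on 143BTK- ρ+ A and B, and above 0 on 143BTK- ρ+ C.

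The mean of these values over the 9 genes was 0.27, 0.17 and 0.00 on the A549 ρ° arrays A, B and C and -0.11, -0.20 and -0.12 on the ρ+ arrays, so the states did not overlap in A549. In 143BTK- it was 0.09, 0.08 and 0.26 on the ρ° arrays and -0.34, -0.29 and 0.19 on the ρ+ arrays, so ρ+ replicate C stood among the ρ° arrays. Across the 12 arrays, after the mean of the line was removed, MTHFD2 and PYCR1 had a correlation of r = 0.85, MTHFD2 and ASNS of 0.77, and PHGDH and PSAT1 of 0.67, whereas MTHFD1 and PYCR1 had -0.80. These values describe 12 arrays that share 4 groups and a common normalization within a line. Correlations with the mean of the 9 genes were ranked over 10781 probe sets that list 1 gene and were kept in both lines. Those that followed it most closely were of HTATIP2 (r = 0.93), HDGFL3 (0.93), SLC6A8 (0.91), PEX14 (0.91) and SPACA9 (0.91). Those that ran most against it were of DDX31 (-0.95), PSMC1 (-0.93), SRR (-0.93), ELAC2 (-0.93) and CSE1L (-0.92). ASNS, itself part of that mean, ranked at place 9 from the top and MTHFD1 at place 55 from the bottom.

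Of the other 23 folate and glycine genes looked up, 17 had a probe set of their own and 16 were tested in 143BTK- and 15 in A549. None was called in a line or in the mean by limma, at an unadjusted p under 0.05 0 were higher and 1 lower in 143BTK- (3.79% and 4.6% of all kept probe sets) and 0 higher and 3 lower in A549 (14% and 13.4%), and the median log2 change was -0.14 in 143BTK- and -0.16 in A549. The 3 in A549 were TYMS (thymidylate synthase, -0.64), GGH (which trims the glutamate tail of folates, -0.72, adjusted p = 0.052) and SFXN1 (a mitochondrial serine carrier, -0.73). GLDC, the glycine decarboxylase of the mitochondrial glycine cleavage system, had a mean signal of 56.6 with mtDNA and 20.3 without it in 143BTK-, and of 25.5 and 37.7 in A549. Its log2 changes of -1.49 and 0.67 differed between the lines by 2.16 (limma adjusted p = 0.0362).

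Of 6 genes on the array that use or break down serine, SRR, the serine racemase, fell in A549, by 0.80 (limma adjusted p = 0.048) and 0.97 (0.0471) on the log2 scale in its probe sets 219205_at and 219204_s_at. For the first of these the call was lost in each fit with 1 array left out (adjusted p between 0.0546 and 0.166). At an unadjusted p under 0.05, 2 of the 5 tested in A549 were higher (14% of all kept probe sets) and 3, SRR among them, were lower (13.4%). The higher ones were CBS, which condenses serine with homocysteine (log2 change 0.93, limma adjusted p = 0.0702), and GCAT, which acts in threonine breakdown to glycine (0.87). The others that were lower were SPTLC1 (202277_at, -0.47) and SPTLC2 (-0.64), subunits of the enzyme that starts sphingolipid synthesis from serine. The second SPTLC1 probe set, 202278_s_at, went the other way in A549 (log2 change 0.95 ± 0.29, limma adjusted p = 0.0608). All its ρ° arrays there were above all ρ+ arrays, so the direction of SPTLC1 depended on the probe set. In 143BTK- 0 of 6 were at that level in either direction. Of 6 other proline and asparagine genes on the array 5 were tested in each line and 4 in the mean, and 0 were called. At an unadjusted p under 0.05 in limma, 0 of 5 were higher or lower in 143BTK- (3.79% and 4.6% of all kept probe sets), and in A549 0 of 5 were higher (14% of all) and 1 lower (ASNSD1, log2 change -0.53; 13.4% of all). These counts use the brightest probe set of a gene. A second probe set of ALDH4A1, 203722_at, was higher in A549 (limma unadjusted p = 0.0133, adjusted p = 0.0844). Its ρ+ mean of 18.1 there is under the floor of the tests, so no size is given.

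Among 11 regulators of the amino acid response, ATF4 itself (200779_at) had a log2 change of 0.45 in 143BTK- (limma adjusted p = 0.581), 0.31 in A549 and 0.38 in the mean (limma adjusted p = 0.162). NUPR1, a stress-induced partner of this response, rose in A549 by a log2 change of 1.94 (limma adjusted p = 0.0242), a call lost without A549 ρ° A (0.1001) or ρ° B (0.0942) or without the intensity trend (0.0631). In 143BTK- its ρ° arrays were all above its ρ+ arrays, whose mean of 11.03 is under the floor of the tests, so no size is given. NUPR1 also passed in the mean of both lines (limma adjusted p = 0.00696), and did so in all 12 fits with 1 array left out (0.0047 to 0.0272). This mean includes the 143BTK- change, which rests on the ρ+ mean under the floor, so its size is not given either. TRIB3, a pseudokinase induced by ATF4 and DDIT3, fell in A549 with a log2 change of -1.16 (limma adjusted p = 0.0072), while its change in 143BTK- was 0.42. DDIT3 had 0.49 in 143BTK- and -0.51 in A549, with no call. By limma 1 of the 11 was called higher and 1 lower in A549 (5.66% and 5.2% of all kept probe sets), and 0 in 143BTK- (0% and 0%). In the mean 1 was called higher and 0 lower (1.97% and 1.73%). At an unadjusted p under 0.05, 2 were higher in 143BTK- (ATF4, NUPR1; 3.79%) and 0 lower (4.6%). In A549 1 was higher (NUPR1; 14%) and 2 lower (TRIB3, and EIF2AK1 with a log2 change of -0.39; 13.4%). The list had a median log2 change of 0.42 in 143BTK- and -0.12 in A549, with 9 of 11 and 4 of 11 genes above 0.

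**Figure D4:**
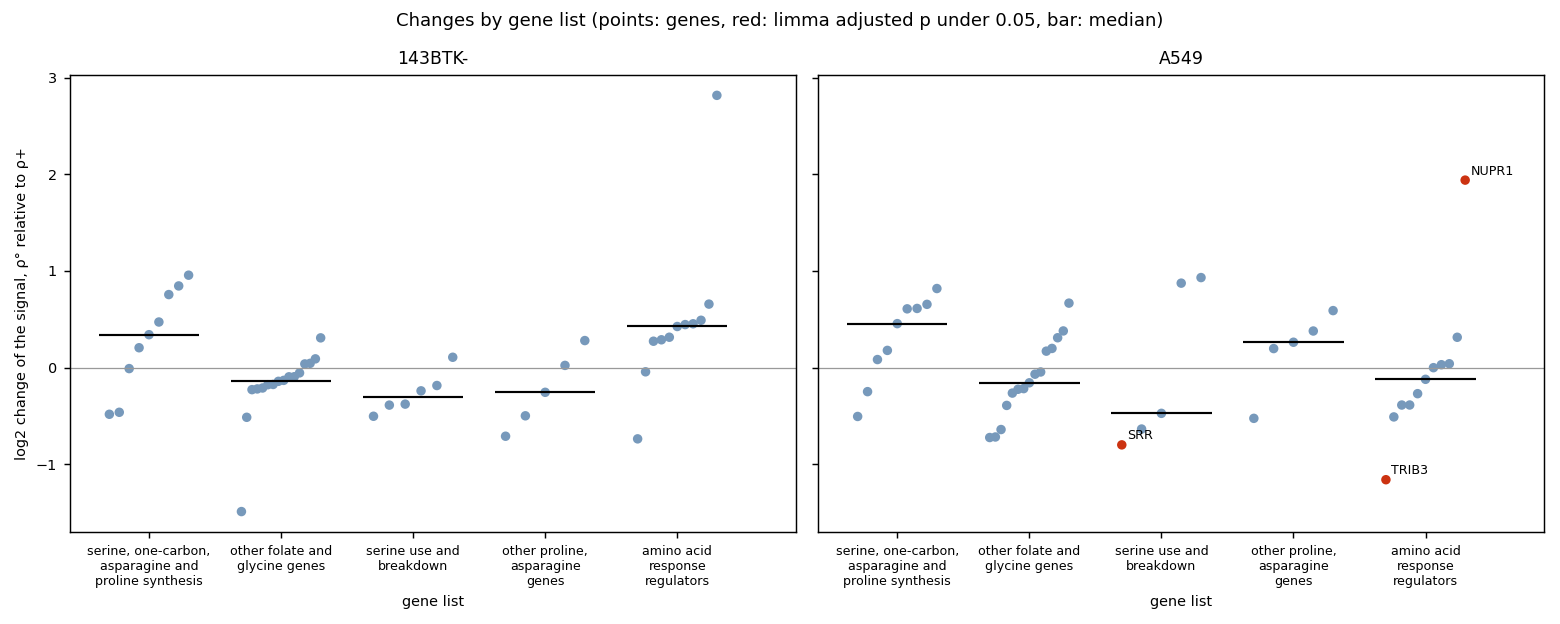
Log2 change (ρ° relative to ρ+) of each tested gene in 143BTK- and A549 by gene list, with genes past a limma adjusted p of 0.05 in red and the list's median as a bar. The 10 genes' list has the medians 0.34 and 0.45, and the red points are SRR, TRIB3 and NUPR1 in A549. The highest point in 143BTK- is NUPR1, whose ρ+ mean signal there is under the floor of the tests.

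Epithelial markers differed between the states in A549. Of 6, 5 were tested and 4 fell there by limma (KRT8, KRT18, KRT19 and CDH1), where 5.2% of all kept probe sets were called lower. KRT18 went from a mean signal of 8228 to 3345 and KRT19 from 408.7 to 3.53, the latter under the floor of the tests. In 143BTK- 4 of the 6 were tested and 0 called, as were 0% of all kept probe sets higher and 0% lower. KRT8 and KRT18 had log2 changes there of -0.69 and -0.42, while those of KRT7 and EPCAM were positive. In the mean of both lines 3 were tested and 2 fell by limma (1.73% of all), KRT8 (-0.92, adjusted p = 0.049) and KRT18 (-0.89, adjusted p = 0.0168). Of 6 mesenchymal markers 5 were tested in each line and 0 called, where in A549 5.66% of all were called higher and 5.2% lower. SPARC, not tested in A549, had mean signals there of 29.5 in ρ+ and 2.97 in ρ° cells, the latter under the floor. Of 5 markers of blood and endothelial cells on the array 2 were tested in 143BTK- and 3 in A549, with 0 called. PTPRC and VWF had group means of 10.6 or less in all 4 groups, CD3E of 23.0 to 33.7 and PECAM1 of 21.5 to 32.1, and CD14 had 38.7 in ρ° and 59.9 in ρ+ cells of A549 and 2.93 or less in 143BTK-. The part of these shifts in the values of the 10 genes was not tested.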

How the data were processed

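RNA of 12 samples was measured on Affymetrix arrays, and the deposited values are MAS5 intensities on a linear scale, which the authors quantile-normalized over the 6 arrays of each line. The authors dropped whatever MAS5 called absent throughout a line. These calls were not applied here, and the same numbers of probe sets, ranked by mean log2 signal, were kept (14012 in 143BTK- and 13096 in A549, with 12139 in both). Log2 signals were compared between ρ° and ρ+ cells with limma 3.58.1 in R 4.3.3 (lmFit, eBayes with an intensity trend, two-sided, Benjamini-Hochberg over all kept probe sets, threshold 0.05). The power law global error model of the methods was not used. Each line was fitted on its own, with 4 residual degrees of freedom. A fit of all 12 arrays, with 8, gave the mean change and the difference between the lines. Of the probe sets, 19071 list a single gene, 1043 several and 2169 none. All columns were used. Probe sets listed to mtDNA genes numbered 0, so the depletion could not be read here. Members of the 4 comparison lists are named where they were called, had an unadjusted p under 0.05 in the text's counts or regulate the members. The 10 genes and all lists were chosen with earlier results of these data known. Plots were made in Python 3.11.15 (matplotlib 3.10.9).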

Additional observations from a re-analysis of the deposited data

Results flagged for a closer look

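The change of GLDC, the glycine decarboxylase, differed between the lines by 2.16 on the log2 scale (limma, change in A549 minus change in 143BTK-, adjusted p = 0.0362), the only gene of the 10 or of the metabolic and regulator lists for which the test of this difference passed. The adjusted p was between 0.0159 and 0.0897 with 1 array left out, and 0.0579 with the replicate letter as a block. GLDC was faint, with group means of 20.3 to 56.6, and its A549 ρ+ replicate B (14.5) was under the A549 floor of 19.1. With a mean signal of at least 100 as the filter, GLDC was not tested.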

How the results depend on the processing

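Alternatives were joint quantile normalization of all 12 arrays, an offset of 16 or 64, a mean signal of at least 100 or no filter, the letter as a replicate block, no trend, centring on chromosome medians, counting any probe set, and single arrays left out. Leaving out both ρ+ C arrays, or 143BTK- ρ+ C and ρ° B, was chosen after seeing the data. A comparison of protein sequences was planned and not run, as no sequences were at hand. The number of the 10 genes called in A549, 0, became 1 with a mean signal of at least 100, with chromosome centring and without both ρ+ C arrays (ASNS each time), and 1 when any probe set counted (SHMT2). That in the mean change, 1, became 0 without the intensity trend or with centring and 2 when any probe set counted. With 1 array left out these were 0 to 1 and 0 to 2. Genes with non-overlapping groups, 4 in each line, were 8 in 143BTK- without ρ+ C and ρ° B, and with 1 array left out 4 to 8 in A549 and 4 to 6 in 143BTK-. With fewer arrays the groups of any probe set separate more easily. The share of all kept probe sets was not computed for these fits, so no conclusion is drawn from the larger counts. Folate and glycine calls, 1, were 2 with 16 or 64 added and without both ρ+ C arrays, 0 without a filter and without 143BTK- ρ+ C and ρ° B, and 0 to 2 with 1 array left out. Serine-using calls, 1, were 0 without a filter, with a mean signal of at least 100, without the trend and with the block, and 0 to 2 with 1 array left out. The PHGDH change in 143BTK-, near 0, was 0.15 with centring, 0.22 without both ρ+ C arrays, 0.33 without ρ+ C and ρ° B, and -0.24 to 0.22 with 1 array left out. That of SHMT2 in A549 was -0.015 with centring and -0.038 to 0.31 with 1 array left out, that of PSAT1 in 143BTK- -0.13 to 0.58, and the mean change of PSPH -0.0063 to 0.36. The causes were not tested. Arrays of the same letter deviated together only in part, with correlations of 0.36, -0.11 and -0.02 in 143BTK- and 0.11, 0.05 and 0.09 in A549, so the letters were not taken as pairs. With the replicate block the counts of the 10 genes called were 0 in A549, 0 in 143BTK- and 1 in the mean (PYCR1, limma adjusted p = 0.0404), and SRR in A549 had 0.0562.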
